A study of Mus musculus with 2 samples.

Results

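The genes described here encode the proteasome, its activators and its assembly factors. They were taken as all genes whose symbol starts with Psm, a letter from a to g and a digit, and which are read by a probe set with a single gene symbol. The rule found 49 of the 18193 genes named on the array, read by 103 of its 45037 probe sets. They comprise 14 genes of the core particle (7 alpha and 7 beta subunits), 17 of the regulatory particle (9 of its base and 8 of its lid), 4 of the immunoproteasome and its interferon-inducible activator, 2 tissue-restricted core subunits, 3 genes of other activators or inhibitors and 7 assembly chaperones. The remaining 2, Psmc3ip and Psme3ip1, match the pattern but encode proteins named for binding a subunit or activator, and are not proteasome subunits.

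RNA was measured in 2 clones of undifferentiated E14 mouse embryonic stem (ES) cells with forced expression of the zinc finger transcription factor Klf5, on 1 Affymetrix array each. Both clones were grown in ES medium with 15% fetal bovine serum and LIF, a cytokine that sustains self-renewal. The labels do not give the promoter that drives Klf5, nor whether the clones were cultured or hybridised together. The study set these clones against wild-type ES clones, which were not analysed here, so no value below is an effect of Klf5. With 1 array per clone no p-value can be computed: the clones are compared by size alone, and the arrays' number limits the precision.

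The proteasome is the main ATP-dependent protease of the cytosol and nucleus and degrades proteins marked with ubiquitin chains. Its barrel-shaped core particle has outer rings of alpha subunits, which form the gate, and inner rings of beta subunits, of which Psmb5, Psmb6 and Psmb7 carry the active sites. The regulatory particle caps the core: the ATPases of its base unfold the substrate and the lid removes the ubiquitin chain. In lymphoid and interferon-treated cells the active beta subunits are replaced by Psmb8, Psmb9 and Psmb10, which gives the immunoproteasome and changes the peptides presented on MHC class I. Human ES cells are known for a high proteasome activity that depends on the lid subunit Psmd11.

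Because the results on signal turn on the active beta subunits and their inducible counterparts, the 120 bases before the start are shown for the 5 of these genes with a window, read 5′ to 3′ along the gene from RefSeq (GRCm38.p6). Capitals mark matches on either strand to the core of the antioxidant response element (TGACNNNGC), through which the factor Nfe2l1 induces proteasome genes, to the CCAAT box (CCAAT) and to the gamma-activated site (TTCNNNGAA), a STAT motif. Psmb5 (chr14:54617996-54618115, minus strand), Psmb6 (chr11:70525237-70525356, plus strand), Psmb8 (chr17:34198075-34198194, plus strand), Psmb9 (chr17:34187331-34187450, minus strand) and Psmb10 (chr8:105938393-105938512, minus strand), which holds none of these matches, read as follows.
Psmb5: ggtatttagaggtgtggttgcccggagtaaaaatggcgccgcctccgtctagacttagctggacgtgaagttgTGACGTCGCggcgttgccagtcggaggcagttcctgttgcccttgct
Psmb6: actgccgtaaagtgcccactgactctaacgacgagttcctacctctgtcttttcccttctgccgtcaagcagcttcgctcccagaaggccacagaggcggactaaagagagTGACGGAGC
Psmb8: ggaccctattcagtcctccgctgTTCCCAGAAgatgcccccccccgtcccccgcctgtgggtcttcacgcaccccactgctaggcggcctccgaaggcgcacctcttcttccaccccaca
Psmb9: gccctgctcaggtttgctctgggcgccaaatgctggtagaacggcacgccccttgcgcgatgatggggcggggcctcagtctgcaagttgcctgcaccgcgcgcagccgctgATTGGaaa
Psmb10: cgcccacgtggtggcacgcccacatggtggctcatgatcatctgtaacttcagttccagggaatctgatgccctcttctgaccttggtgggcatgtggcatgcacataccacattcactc

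Each value below is a deposited log2 signal, given for clone 1 and then clone 2, of the gene's brightest probe set. Each difference subtracts the log2 signal of clone 1 from that of clone 2, and because probe sets differ in affinity no gene's signal is ranked against another's. A gene was called above background where its signal passed the 95th percentile of 79 probe sets of adult tissue genes, 7.18 in clone 1 and 6.99 in clone 2. Klf5, the overexpressed gene, gave 11.61 and 12.25 by its brightest probe set, a mean of 11.93 ± 0.45 (SD, n = 2). All 8 ES cell markers were above background in both clones (Pou5f1 at 12.26 and 12.43, Nanog at 12.21 and 12.49), as was 1 of 8 fibroblast feeder markers, Thy1 (7.54 and 7.66), and 0 of 7 haematopoietic and 0 of 7 differentiated lineage markers. In RNA from a whole culture, fewer cells with a transcript and less of it per cell cannot be told apart.

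Nearly all proteasome genes gave a signal above background, with the exceptions among the inducible and tissue-restricted subunits. Of the 49 genes 46 were above background in both clones, against 42.0% of all genes. These 46 include all 14 core particle genes, all 17 regulatory particle genes and all 7 assembly chaperones. The 3 genes above background in neither clone were Psmb8, Psmb9 and Psmb11.

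**Figure D1:**
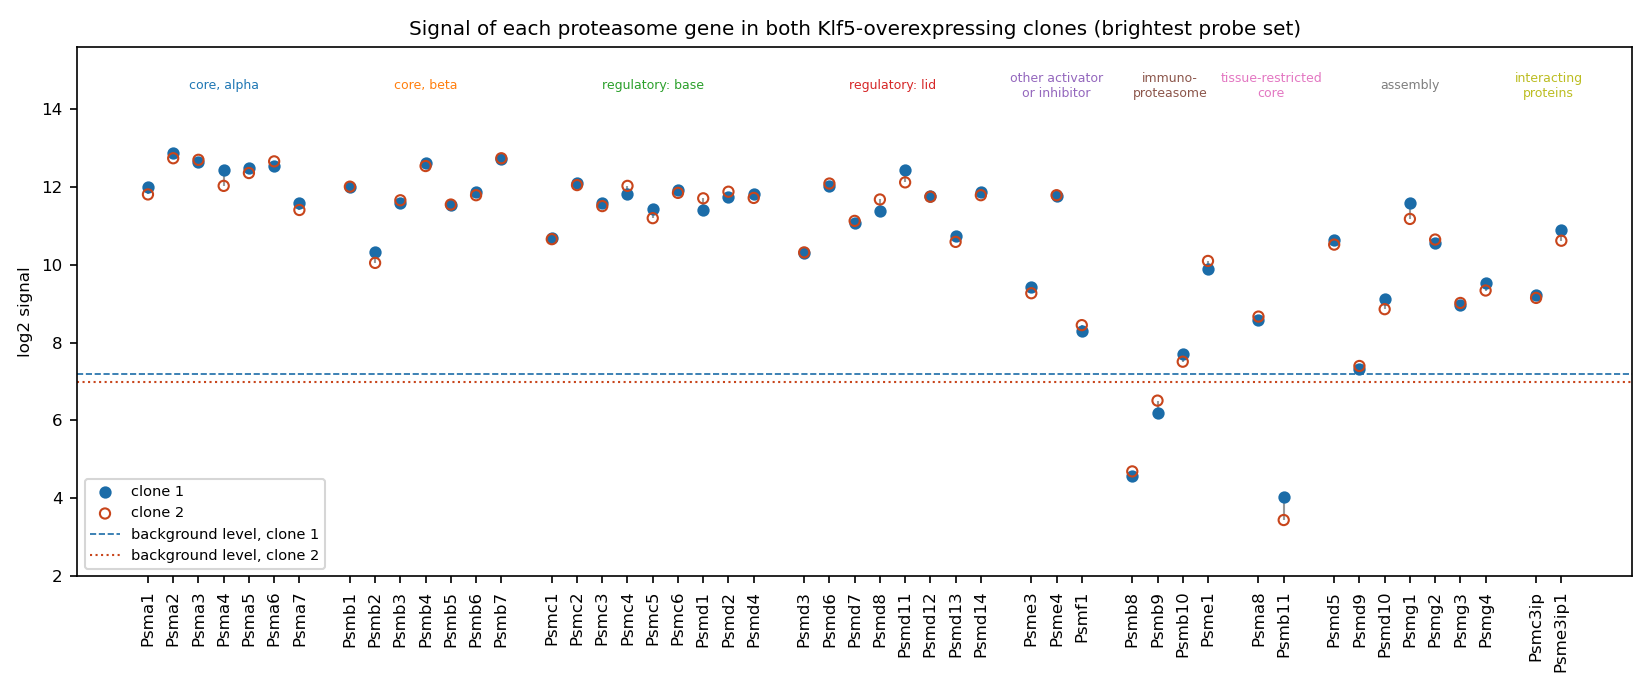
The log2 signal of each of the 49 genes by its brightest probe set is plotted for clone 1 (filled points) and clone 2 (open points), with 1 array per clone; the horizontal lines are the background levels of 7.18 and 6.99. Both points of 46 genes lie above the lines, and Psmb8, Psmb9 and Psmb11 lie below them.

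Among the active subunits of the core, Psmb5, which cleaves after hydrophobic residues, gave 11.54 and 11.55. Psmb6, with caspase-like activity, gave 11.88 and 11.79, and Psmb7, with trypsin-like activity, gave 12.72 and 12.74. All 3 were thus far above background, and none differed between the clones by more than 0.09. Their inducible counterparts did not follow one pattern. Psmb8, which replaces Psmb5, gave 4.58 and 4.69 (4.64 ± 0.08, SD, n = 2), and its other probe set 2.70 and 2.96. Psmb9, which replaces Psmb6, gave 6.18 and 6.51 (6.35 ± 0.23, SD, n = 2). Both were below background in each clone, whereas Psmb10, which replaces Psmb7, was above it at 7.72 and 7.51 (7.62 ± 0.15, SD, n = 2). The call on Psmb9 depends on the background: with the level at the 90th percentile it passed in clone 2 alone, and against sensory receptor probe sets it passed in both clones.

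Psme1, a subunit of the interferon-inducible activator ring, gave 9.89 and 10.10, above background in both clones. Its partner Psme2 has no probe set of its own here. A pair of further core subunits is known from single tissues. The testis alpha subunit Psma8 gave 8.59 and 8.67 and was above background in both clones, whereas the thymus beta subunit Psmb11 gave 4.03 and 3.44 and was not. With background at the 99th percentile Psma8 and Psmb10 no longer passed in both clones.

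Genes that act with the immunoproteasome in antigen presentation, or that induce it, were read beside it. Of the 13 that were measured, 7 (53.8%) passed background in both clones, against 42.0% of all genes. A difference of at least 0.32 on the log2 scale was met by 0 of these 7, where 17.3% of all genes above background met it towards clone 2 and 3.14% towards clone 1. H2-K1 and H2-D1, class I heavy chains, gave 8.22 and 8.45, and 8.39 and 8.60, each by a probe set that may bind several transcripts. Tapbp, a peptide loading factor, gave 7.45 and 7.77, just under this size. Irf1, a factor that induces the immunoproteasome genes, gave 8.40 and 8.19, and the interferon receptor kinases Jak1 and Jak2 gave 9.11 and 9.22, and 7.25 and 7.53. The peptide transporter genes Tap1 (6.55 and 6.57) and Tap2 (5.29 and 5.56), which lie beside Psmb9 and Psmb8 in the MHC, and the class I transactivator Nlrc5 (3.42 and 3.46) were not above background. The interferon receptor genes Ifngr1 (6.28 and 6.06) and Ifngr2 (5.33 and 4.85), and Erap1 (4.18 and 3.78), were not above background either. These 6 genes, all of the list that passed in neither clone, were named after their values were seen.

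Between the clones the proteasome genes differed little, and they lay to the clone 1 side of the other genes on the array. None of the 46 genes above background differed 2-fold, against 0.397% of all 8318 genes above background in at least 1 clone. A finer size rule of 0.32 on the log2 scale was passed in the direction of clone 1 by 2 genes, Psma4 and Psmg1, against 3.14% of all genes, and in the direction of clone 2 by 0, against 17.3%. Of the 46 genes 26 (56.5%) were higher in clone 1, 19 in clone 2 and 1 was equal, whereas 33.3% of all genes were higher in clone 1. The median difference of the 46 genes was -0.06 (interquartile range -0.16 to 0.065), and that of all genes above background was 0.09 (interquartile range -0.06 to 0.26).

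Part of this distance moves with the signal. Bright genes differed less between the arrays: genes with a mean signal of at least 10 had a median difference of 0.04, with 40.9% of these 2101 genes on the clone 1 side. In that range, chosen after the data were seen, lay 36 proteasome genes, with a median of -0.06 and 21 higher in clone 1. By the finer rule 2.67% of bright genes were higher in clone 1 and 8.28% in clone 2. Within narrower bands the members' medians were -0.13, -0.045 and -0.05 at mean signals of 10 to 11, 11 to 12 and 12 to 13, where all genes had medians of 0.045, 0.04 and 0.02. The distance from all genes was therefore present within each of these 3 bands, and smaller than over the whole range in the latter 2.

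**Figure D2:**
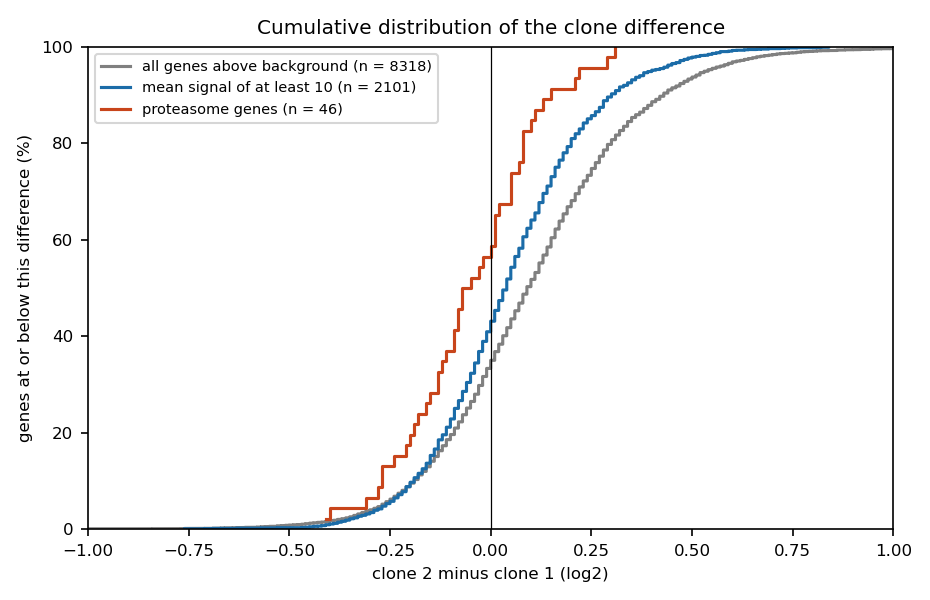
The cumulative share of genes (percent) is plotted against the clone 2 minus clone 1 difference (log2) for all 8318 genes above background in at least 1 clone, for the 2101 genes with a mean signal of at least 10 and for the 46 proteasome genes above background. The curve of the proteasome genes runs to the left of both others, with medians of -0.06, 0.04 and 0.09 for the proteasome, bright and all genes.

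The direction depends on how the arrays are scaled, and the order of the medians did not change with the 3 scalings tried. Centring each array on its median moved the median of the 46 genes to 0.03 and that of all genes to 0.18. Quantile normalization gave -0.09 and -0.002, and loess normalization -0.08 and 0.01. The median of the proteasome genes relative to that of all genes was thus -0.15 as deposited and after median centring, -0.084 after quantile and -0.097 after loess normalization. The share higher in clone 1 was 37.0% against 19.6% of all genes after median centring and 73.9% against 50.4% after quantile normalization.

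**Figure D3:**
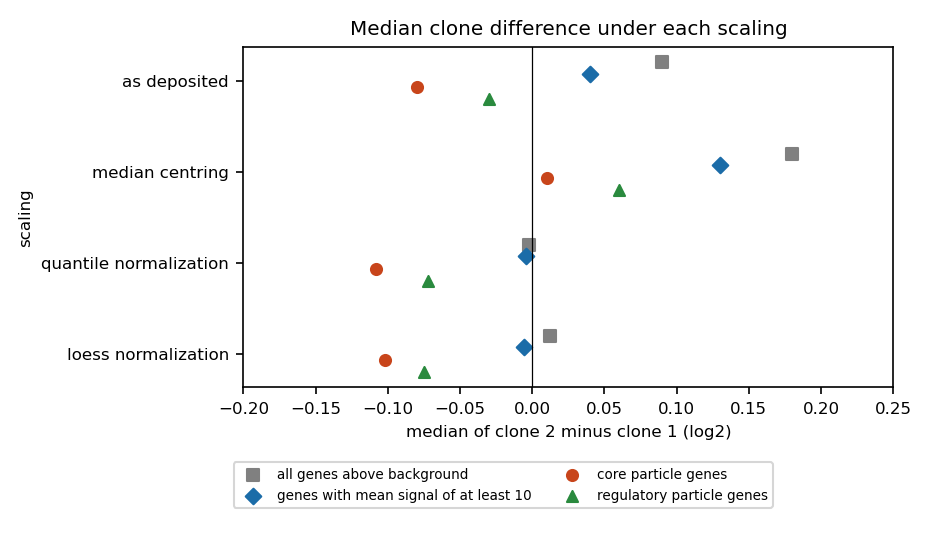
The median clone 2 minus clone 1 difference (log2) is plotted under 4 scalings for all genes above background (squares), genes with a mean signal of at least 10 (diamonds), the 14 core particle genes (circles) and the 17 regulatory particle genes (triangles). Under each scaling both particles lie left of both wider sets, and only median centring places them above 0, at 0.01 and 0.06.

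Over the 8 classes the medians of genes above background lay between -0.13 and 0.08. The 14 core particle genes had a median difference of -0.08, with an SD of 0.145 over the genes and 8 of them higher in clone 1. The 17 regulatory particle genes had a median of -0.03, with an SD of 0.171 and 10 higher in clone 1. Both medians were above 0 after median centring, and that of the regulatory particle was 0.05 without probe sets that may bind several transcripts. The 7 assembly chaperones had a median of -0.13 and the 2 immunoproteasome genes above background a median of 0. With 1 array per clone these contrasts between classes carry no test.

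**Figure D4:**
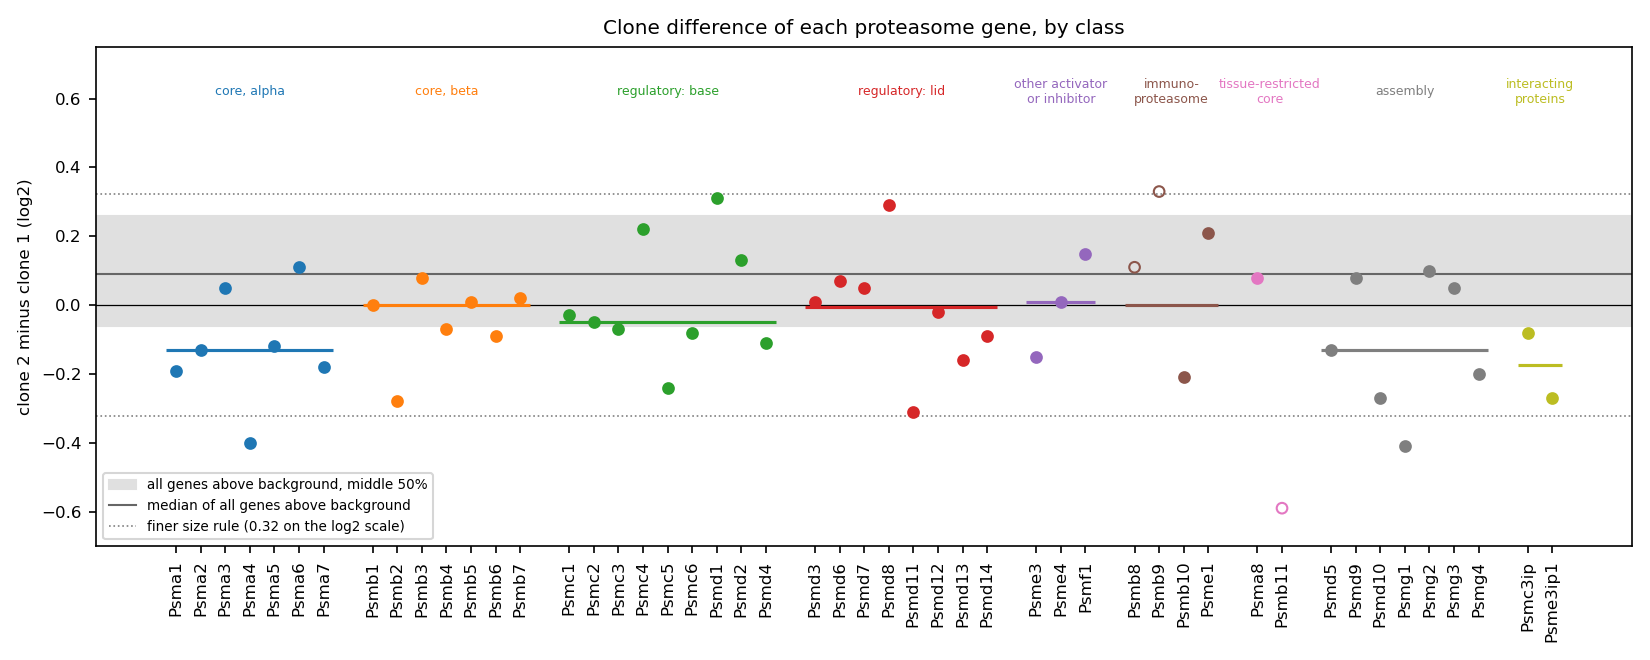
The clone 2 minus clone 1 difference (log2) of each of the 49 genes is plotted by class. Open points are genes above background in neither clone, and short coloured lines are class medians over genes above background. The grey line and band are the median and interquartile range of all genes above background, and dotted lines mark the finer size rule of 0.322. Most points lie within 0.3 of 0, and among the genes above background only Psma4 and Psmg1 lie outside the dotted lines.

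In the alpha ring the median was -0.13, and 5 of 7 genes had the higher signal in clone 1. Psma4 gave 12.43 and 12.03 (12.23 ± 0.28, SD, n = 2), 1.32-fold higher in clone 1. It is read by 1 probe set, so no second reading is at hand. Psma1 gave 12.00 and 11.81, Psma2 12.87 and 12.74, Psma5 12.48 and 12.36, and Psma7 11.59 and 11.41. Both bright probe sets of Psma5 (-0.12 and -0.23) and of Psma7 (-0.18 and -0.21) gave the same direction. Psma3 (12.65 and 12.70) and Psma6 (12.55 and 12.66) were the alpha genes higher in clone 2, and the other bright probe set of Psma6 went the opposite way (12.29 and 12.18). Median centring moved the ring's median to -0.04, still below 0.

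The beta ring was centred on 0. Besides the active subunits, Psmb1 gave 12.01 in each clone, Psmb3 11.58 and 11.66, and Psmb4 12.61 and 12.54. Psmb2, a structural beta subunit, gave 10.33 and 10.05, 1.21-fold higher in clone 1 and the widest difference in the ring. The median of the 7 genes was 0, and 3 were higher in each clone. It was 0.09 after median centring and -0.02 after quantile normalization, so the ring has no direction apart from the scaling.

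The 6 ATPases of the base form a ring and drive unfolding; their median was -0.06 and 5 had the higher signal in clone 1. Psmc5 gave 11.44 and 11.20, the widest of these 5. Psmc1 (10.69 and 10.66), Psmc2 (12.10 and 12.05), Psmc3 (11.58 and 11.51) and Psmc6 (11.93 and 11.85) each differed by 0.08 or less. Psmc4 was the ATPase higher in clone 2, at 11.81 and 12.03, and its other probe set went the opposite way, at 11.23 and 11.09. After median centring, which adds 0.09 to each difference, Psmc5 alone of the 6 stayed below 0. The non-ATPase subunits of the base did not share a direction. Psmd1 and Psmd2, large scaffold subunits, were higher in clone 2, at 11.40 and 11.71, and 11.75 and 11.88. The ubiquitin receptor Psmd4 was higher in clone 1, at 11.83 and 11.72. Psmd1, at 1.24-fold, lay just inside the finer size rule.

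The lid was evenly split, with 4 genes higher in each clone and a median of -0.005. Psmd14, the deubiquitinating enzyme of the lid, gave 11.88 and 11.79. Psmd8 gave 11.39 and 11.68, the widest difference towards clone 2, and Psmd11 12.43 and 12.12, the widest towards clone 1. Psmd8 was 1.22-fold higher in clone 2 and Psmd11 1.24-fold higher in clone 1. The other lid genes lay closer together: Psmd3 at 10.31 and 10.32, Psmd6 at 12.02 and 12.09, Psmd7 at 11.08 and 11.13, Psmd12 at 11.77 and 11.75, and Psmd13 at 10.75 and 10.59.

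Psmd11 is the lid subunit whose abundance has been tied to proteasome assembly in pluripotent cells, and it was read by 8 probe sets. Of these, 4 were above background in both clones, with differences of -0.31, -0.36, -0.44 and 0.25. The 3 that were higher in clone 1 gave 12.43 and 12.12, 11.34 and 10.98, and 10.27 and 9.83. The fourth gave 10.72 and 10.97. The probe sets thus did not share a direction. The one that went against the others is the brightest left when probe sets that may bind several transcripts are omitted, which turns the gene's difference to 0.25. That omission also keeps the probe set at 10.27 and 9.83, so the kept ones did not share a direction either.

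Activators and inhibitors outside the interferon response all passed background in each clone. Psme3, the nuclear activator, gave 9.42 and 9.27, and both of its bright probe sets were higher in clone 1. Psme4, a large single-chain activator, gave 11.78 and 11.79 by its brightest probe set and was higher in clone 2 by 0.23 and 0.34 in the other bright ones. Psmf1, an inhibitor of the core particle in vitro, gave 8.30 and 8.45. None of the 3 passed the finer size rule by its brightest probe set.

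Among the 7 assembly chaperones 4 were higher in clone 1, and 1 passed the finer size rule. Psmg1, which pairs with Psmg2 to build the alpha ring, gave 11.59 and 11.18 (11.39 ± 0.29, SD, n = 2), 1.33-fold higher in clone 1. Psmg2 gave 10.55 and 10.65, and its other bright probe set 10.38 and 10.78. The partners of this heterodimer thus differed in opposite directions on these arrays, and whether they vary apart was not tested. Psmg1 has 1 probe set. Psmg3 and Psmg4, which form the other chaperone pair of the alpha ring, gave 8.97 and 9.02, and 9.54 and 9.34. The chaperones of the base, Psmd5, Psmd9 and Psmd10 (gankyrin), gave 10.65 and 10.52, 7.32 and 7.40, and 9.13 and 8.86. Psmd9 lay closest to background. After median centring the difference of Psmg1 was -0.32 and that of Psma4 -0.31, each inside the finer size rule.

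The matched genes that are not subunits were both higher in clone 1. Psmc3ip, a meiotic recombination factor, gave 9.23 and 9.15 and, by its other probe set, 9.13 and 8.85. Psme3ip1, which binds the nuclear activator, gave 10.89 and 10.62. Without these 2 genes the median of the remaining 44 was -0.04.

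Repeat readings of one gene on the same arrays give a yardstick for these differences. Among the proteasome genes, 15 had at least 2 probe sets above background in both clones. The clone differences of these probe sets varied around their gene's mean with a pooled SD of 0.221, against 0.233 over 2741 such genes array-wide. The SD of the difference over the 46 genes, 0.167, was smaller than this. All such probe sets shared a direction in 9 of the 15 genes (60%), against 50.7% over the whole array. These shares mix genes with different numbers of probe sets. Among genes with exactly 2, the direction was shared in 8 of 12 (66.7%), against 58.7% over the whole array. Psmc6 varied most: its probe sets gave 11.93 and 11.85, 10.04 and 10.28, and 7.84 and 8.60, the dimmest being 1.69-fold higher in clone 2. Of the 46 genes 9 (19.6%) differed between the clones by more than the SD of 0.221, against 36.5% of all genes and 24.1% of those with a mean signal of at least 10. For most proteasome genes the clones thus differed by less than this SD. Psmc6 and Psmd11 weigh heavily on it: their probe sets lay 0.84 and 0.69 apart, and those of the other genes 0.36 or less. The SD also takes in dimmer probe sets, whereas each gene's difference is read by its brightest.

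**Figure D5:**
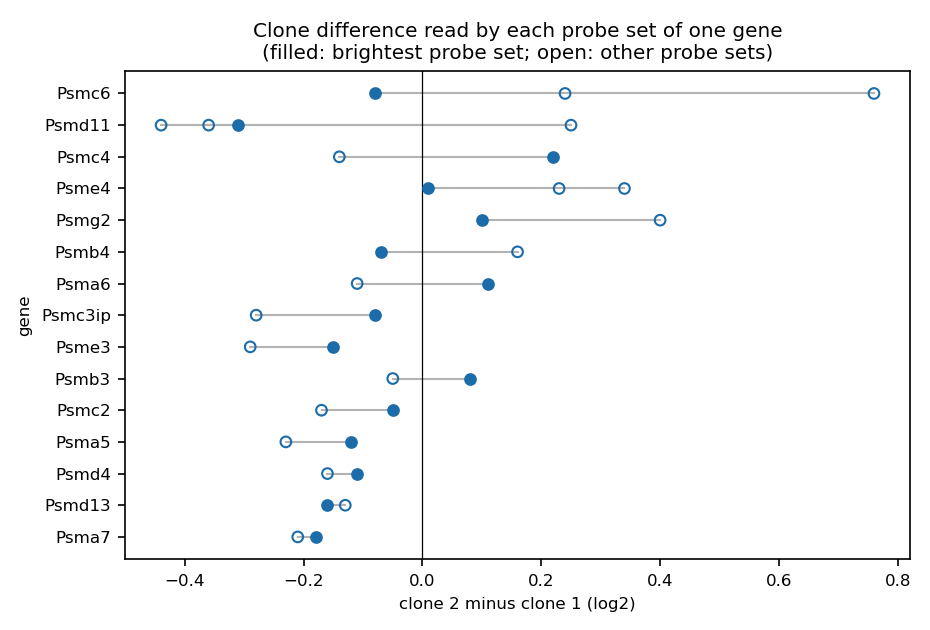
For the 15 genes with at least 2 probe sets above background in both clones, the clone 2 minus clone 1 difference (log2) of each probe set is plotted, with the brightest filled and the others open. Probe sets of Psma7 and Psmd13 lie 0.03 apart, those of Psmd11 0.69 and those of Psmc6 0.84.

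Genes that work with the proteasome had the direction of the array as a whole. Of 12 measured partners 11 passed background in both clones, against 42.0% of all genes. Their median difference was 0.17, and 7 of the 11 were higher in clone 2, where 65.0% of all genes above background were. By the finer size rule 1 of them was higher in clone 2, Zfand2a, a stress-induced proteasome-associated protein (8.01 and 8.57), and 0 in clone 1, against 17.3% and 3.14% of all genes. The reductase Txnl1, which binds the regulatory particle, gave 11.89 and 12.09, the nuclear import factor Akirin2 11.49 and 11.66, and Ecpas, an adaptor of the assembled proteasome, 7.44 and 7.73. The ligase Ube3c gave 9.07 and 9.28. Higher in clone 1 were 3 genes: the maturation factor of the core Pomp (11.61 and 11.45), the deubiquitinase Uchl5 (11.69 and 11.61) and Sem1, a lid subunit without a Psm symbol that was chosen after its values were seen (11.52 and 11.35).

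The regulators of proteasome genes and the ubiquitin pathway also had medians above 0. Of 10 measured regulators 9 passed background in both clones, against 42.0% of all genes, and the median over the 10 genes was 0.145. The finer size rule was passed towards clone 2 by 2 of the 10, close to the 17.3% of all genes. These were Mafg, a small partner of the Nfe2l factors (7.60 and 8.12), and Nfe2l2, the oxidative stress regulator (9.93 and 10.30). Nfe2l1, the factor that restores proteasome genes after inhibition, gave 8.47 and 8.57 and was chosen after its values were seen, and Ngly1, which processes it, 7.60 and 7.78. Stat3 gave 8.63 and 8.91, and the CCAAT-binding subunits Nfyb and Nfyc gave 10.30 and 10.15, and 9.12 and 9.15. Of 9 measured genes of ubiquitin supply and substrate shuttling 8 were above background in both clones, against 42.0% of all genes, with a median of 0.165. Among the 8 were the unfoldase Vcp (11.97 and 12.13) and its cofactors Nploc4 (8.22 and 8.48) and Ufd1 (8.66 and 8.91). The shuttles Rad23b (11.38 and 11.54), Ubqln1 (11.92 and 11.82), Ubqln2 (10.90 and 11.07) and Ubqln4 (9.75 and 10.13) were among them too. Ubqln4, at 1.30-fold, was the 1 of these 8 to pass the finer rule, against 17.3% of all genes towards clone 2. The medians of the partner, regulator and ubiquitin lists lay above the 0.09 of all genes and stayed above 0 under the scalings tried, at 0.10, 0.03 and 0.13 after quantile normalization, where 6 partners were higher in clone 2 and 5 in clone 1. Whether these lists differ from the proteasome genes was not tested.

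The sequences before the start sites were searched for the motifs shown above. RefSeq windows were matched for 41 of the 49 genes; those without a match were Psma8, Psmb1, Psmb2, Psmb7, Psmc3, Psmd3, Psmd7 and Psmg2. In the 250 bases before the start, on either strand, TGACNNNGC was found in 5 of 41 genes (12.2%), against 11.5% of 27025 genes. These were Psmb5 and Psmb6 of the core, Psmc6 of the base, Psmd12 of the lid and the chaperone Psmd9. CCAAT was found in 39.0% of the proteasome genes and 37.5% of all genes, so neither motif set these windows apart.

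The motifs bound by Klf and Sp factors went in opposite directions. The GC box (GGGCGG) was found in 22 of 41 genes (53.7%), against 35.4% of all genes, and the CACCC box (CACCC) in 16 (39.0%), against 54.5%. Matches of these 2 motifs overlapped in 1 window. The core of the interferon-stimulated response element was in 3 windows (7.3%), against 3.5%, none of them of an immunoproteasome gene, and TTCNNNGAA was in those of Psmb8 and Psmg1 (4.9%), against 8.1%. A match describes letters in a window and not a bound site, and the base composition of the windows was not matched.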

How the data were processed

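The authors deposited a log2 signal for each probe set on either array. Per the submitters' processing notes the tool was Transcriptome Analysis Console; its version, summarisation and normalization, and the genome build, are not stated. Base 2 was inferred from the range, 2.21 to 14.38. Of 45037 probe sets 34945 had 1 symbol in the platform annotation, 932 had several and 9160 are unnamed here; Entrez identifiers of 34741 matched GRCm38.p6. A gene was represented by its probe set with the highest mean. Background was set per array from 53 of 60 listed adult tissue genes. Differences were described by counts and medians beside all genes, with no test, using Python 3.11.15, pandas 2.3.3 and statsmodels 0.14.6 (loess span 0.3), tested on simulated data. All matched genes could be named, and of other lists the 4 widest differences and the 4 brightest. Members and lists were chosen with earlier results of these data known. Alternatives changed the scaling, background, probe set rule or array. Protein sequences were not used here.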

Additional observations from a re-analysis of the deposited data

Results flagged for a closer look

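A probe set shared by Psme2, the partner of Psme1 in the interferon-inducible activator, and its copy Psme2b was outside the comparisons because it carries both symbols. Its signal was 9.60 in clone 1 and 9.38 in clone 2, above the background levels of 7.18 and 6.99, and which of the genes it reads cannot be told apart.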

How the results depend on the processing

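No proteasome gene above background differed 2-fold under any alternative run. With each array judged by itself, 46 of 49 passed background in clone 1 and 46 of 49 in clone 2. By the finer size rule (0.32 on the log2 scale) 2 genes were higher in clone 1 as deposited, against 3.14% of all genes. This count was 0 after median centring (1.45% of all genes) and 4 with the mean over probe sets (2.40%). It was 6 after quantile (7.83%) or loess normalization (7.02%). The count higher in clone 2, 0 as deposited against 17.3% of all genes, was 2 after median centring (Psmd1 and Psmd8), against 27.8%. It was 1 (Psmb9 each time) with background at the 90th percentile (17.5% of all genes), from sensory receptors (16.9%) or without a filter (13.7%). Psmb9 was also the 1 gene without Cryab and Mylpf, a run chosen after the data were seen (17.6%). Without probe sets that may bind several transcripts the count was 1 (Psmc6), against 18.9%. Immunoproteasome genes above background in both clones, 2 of 4, numbered 1 at the 99th percentile and 4 without a filter; tissue-restricted core genes, 1 of 2, numbered 0 and 2, and their median was -0.26 without a filter. With the mean over probe sets 4 assembly genes passed, and 5 lid genes without the ambiguous probe sets, where fewer genes are measured. Where not stated, the cause was not tested. No paired analysis was possible because there is 1 group. The arrays limit precision: signal near background, as for Psmb9 and Psmd9, is read least firmly.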

Other observations

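Probe sets are counted here without the matching share over all probe sets of the array. Of the 103 probe sets that read the proteasome genes, 65 were above background in both clones, 1 in clone 1 alone, 1 in clone 2 alone and 36 in neither. Most of the dim ones belong to genes with a bright probe set: of 4 probe sets of Psma1, 1 gave 12.00 and 11.81 and 3 were below background, and of 4 probe sets of the inhibitor Psmf1, 1 gave 8.30 and 8.45 and 3 were below. A dim probe set of Psma1 gave the widest difference among all probe sets of these genes, 3.21 and 4.37, a signal below background in each clone. By position, 9 of the 49 genes lie on chromosome 11, among them Psmb3, Psmb6, Psmc5, Psmd3, Psmd11 and Psmd12, and 1, Psmd10, on chromosome X. The shares of all genes on these chromosomes are not given here, and clustering by position was not tested.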
